A study of Mus musculus with 8 samples.

Results

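The 9 genes described here make, restrain and break down polyamines. They were chosen by name out of 55401 genes with a value in every library: Odc1, Amd1 and Srm of synthesis, the antizyme genes Oaz1 and Oaz2, the antizyme inhibitor gene Azin1, and Sat1, Smox and Paox of breakdown. The pathway was singled out because Odc1 stood higher after 72 h of tamoxifen than at 0 h. Values of Odc1 against 0 h, and those that use the 72 h libraries, are therefore a description with no test, while the other 8 genes were picked as pathway members and not for their own values. The cells are AtT-20, a mouse corticotrope line of pituitary origin. In all groups they carry ER-Pax7, an introduced form of the transcription factor Pax7 that tamoxifen switches on. Libraries came from 0, 24, 48 and 72 h of tamoxifen, 2 per time. The labels do not say how ER-Pax7 is driven, whether the line is a single clone, or whether replicates were separate cultures, and where they were not, the p-values speak only for technical spread among libraries. No vehicle-treated libraries were used here, so ER-Pax7 activity, tamoxifen itself and hours in culture cannot be told apart.

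Polyamines (putrescine, spermidine and spermine) are small cations that bind nucleic acids and support growth and translation. Ornithine decarboxylase, the product of Odc1, makes putrescine; S-adenosylmethionine decarboxylase, from Amd1, supplies the aminopropyl donor; spermidine synthase, from Srm, joins them. The pathway controls itself after transcription. When polyamines are plentiful, ribosomes shift reading frame on the antizyme messages, and the full-length antizyme binds ornithine decarboxylase and sends it to the proteasome; antizyme inhibitor, a relative of the decarboxylase without its activity, draws antizyme away. The libraries give RNA levels only, and enzyme activity was not measured.

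The frameshift runs of the 2 antizyme members are shown for 2 reasons. They are the places where ribosomes shift reading frame when polyamines are plentiful, and both transcripts varied little over the time course. The first open reading frame ends at the stop codon TGA inside the capitals, and the coding models of GENCODE M21 step over a single base, the T at place 4 of the run, in 3 models of Oaz1 and 2 of Oaz2. Each line gives 40 bases, 5′ to 3′, of coding exon on the plus strand of GRCm38, with the last sense codon and the stop codon in capitals.
Oaz1, chr10:80828275-80828314: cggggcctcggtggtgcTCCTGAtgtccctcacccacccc
Oaz2, chr9:65686252-65686291: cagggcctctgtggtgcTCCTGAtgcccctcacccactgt
The 2 stretches are identical at 34 of 40 positions, the capitals included.

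The deposited values are a normalized signal, read as mean read coverage per base over the merged exons of a gene. Levels of a gene can thus be compared between libraries. Merged exons may hold bases that only some transcripts of a gene include, which lowers the mean by an amount that differs between genes. That amount was not measured, so comparisons of level between genes are approximate. Summed signal was 164236 to 178548 per library, and the read depth is not given, so no counting error can be attached to single values. Of the markers of corticotropes 4 of 5 had a signal of at least 1, and they summed to 535 to 728 per library, while those of fibroblasts, immune cells and endothelium summed to at most 0.555, 0.733 and 0.0695, with Col1a2, Cd3e and Kdr at 0 throughout. Melanotrope markers (Pax7, Pcsk2, Drd2 and Oacyl) summed to 13.3 to 15.8, with 1 of 4 at or above 1 and Drd2 at 0. Reads of the introduced ER-Pax7 could count towards Pax7, which was not tested, so this sum is no measure of melanotrope identity. The corticotrope sum was 665 to 675 at 0 h, 535 to 592 over the 24 and 48 h libraries and 714 to 728 at 72 h. The S phase genes summed to 74.5 to 85.6, with overlapping ranges in all 4 groups. The mitosis genes summed to 58.2 to 64.9, and both 0 h sums (60.6 and 63.2) lay above the 48 and 72 h sums, which reached 60.4; the part of these sums in the results below was not tested. At 24, 48 and 72 h no library lay nearest the other library of its own group. In bulk RNA, fewer cells with a transcript and less of it per cell cannot be told apart.

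At 0 h the members spanned a wide range of levels. Oaz1 was highest at 32.97 ± 1.25 (SD, n = 2 in this and all later groups), then Srm at 15.05 ± 0.50, Odc1 at 7.47 ± 0.157 and Oaz2 at 7.14 ± 0.151. Sat1 at 5.69 ± 0.437, Azin1 at 5.44 ± 0.132 and Amd1 at 5.198 ± 0.240 formed a group in which each gene's libraries overlapped those of its neighbour in the order. Paox at 1.57 ± 0.0584 and Smox at 0.275 ± 0.0229 closed the list. The signal of Oaz1 was thus several times that of Odc1. The signals of the 3 breakdown genes lay below those of the synthesis genes Odc1 and Srm. Against Amd1, the remaining synthesis member, Paox and Smox were lower, while both Sat1 libraries lay above both Amd1 libraries. These statements are of signal per base of merged exons and not of transcript number. Tests used limma on log2(signal + 1) over the 9606 genes whose signal averaged 1 or more, with Benjamini-Hochberg adjustment over all of them and a threshold of 0.05. Of the members, 8 passed that filter and Smox did not.

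**Figure D1:**
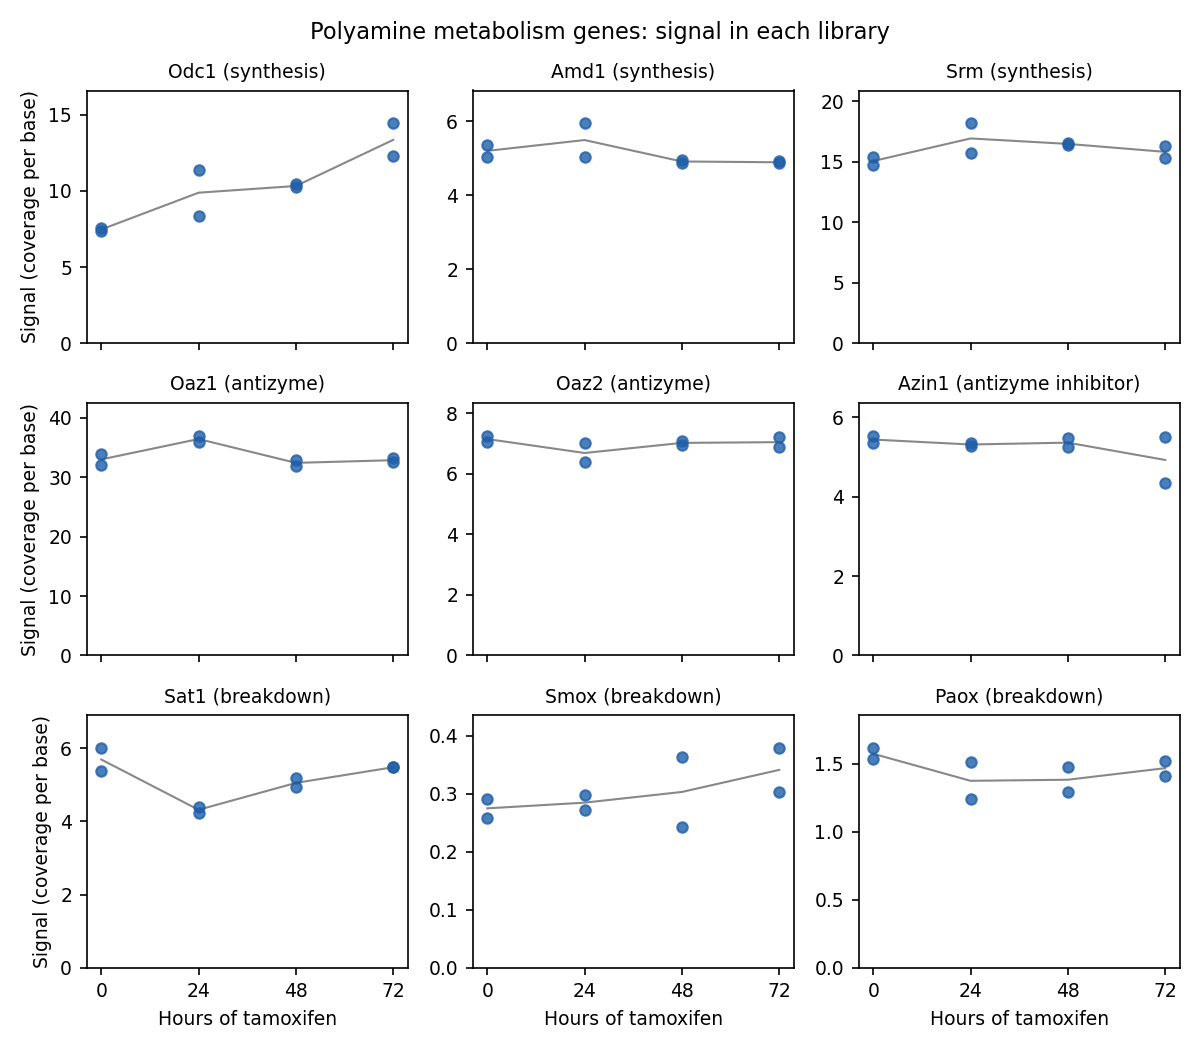
Signal (mean coverage per base, vertical axes starting at 0) of the 9 genes against hours of tamoxifen, with 1 point per library and a line through the means of 2. Odc1 runs from 7.36 in the lowest library to 14.4 in the highest, and Sat1 is lowest in the 24 h libraries. The highest library is 1.56 times the lowest for Smox, the lowest gene, and at most 1.30 times for the other 6.

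Odc1 (ENSMUSG00000011179.8, chromosome 12, 17544794 to 17551505, plus strand, 7 merged exons, GRCm38) carries the rate-limiting first step of the pathway. Its signal was 7.58 and 7.36 in the 0 h libraries, 11.4 and 8.39 in the 24 h libraries, 10.2 and 10.4 in the 48 h libraries and 14.4 and 12.3 in the 72 h libraries. Every treated library was above both 0 h libraries, and both 72 h libraries were above all the others. The means were 1.32, 1.38 and 1.79 times the 0 h mean at 24, 48 and 72 h, or 0.35, 0.42 and 0.76 on the log2(signal + 1) scale, which understates changes of low genes. In a list of the tested genes ordered by that difference at 72 h, Odc1 was number 48 of 9606 from the top; this is the value by which it was chosen.

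The 24 h libraries disagreed on Odc1. Its SD there was 2.12, 21.5% of the mean, against 2.10% at 0 h, and without replicate 1 the 24 h difference from 0 h was 0.15 while without replicate 2 it was 0.55. That library held the highest value for many genes: 28.9% of all 9606 tested genes had their highest signal of the 8 libraries in 24 h replicate 1, as did 3 of the 8 tested members (Amd1, Srm and Oaz1). In the lists around the pathway the counts were 8 of 12 for Myc-responsive growth genes, 4 of 7 for methionine cycle and salvage, 3 of 3 for hypusination, 2 of 4 for synthesis inputs, 2 of 7 for the Myc network and 1 of 5 for transport. The part of that library's state in its Odc1 value was not tested. Another 4 of the 8 tested members (Oaz2, Azin1, Sat1 and Paox) were highest in 0 h replicate 1, as were 15.2% of all tested genes. At 72 h the Odc1 difference from 0 h was between 0.65 and 0.87 with any 1 of the 8 libraries left out.

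The contrast of 48 h with 24 h shares no library with the contrast that singled out Odc1, so it was tested. Odc1 differed by 0.07 (SE 0.13, 95% interval -0.23 to 0.37; limma adjusted p = 0.895), a range that runs from 0.852 to 1.30 times on the signal + 1 scale. No gene at all was called by limma in that contrast (0% of 9606), although 762 (7.93%) had an unadjusted p under 0.05. Between 24 and 48 h, then, no step in Odc1 was detectable with these libraries.

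The exons of Odc1 overlap those of no other gene, and the only gene inside its span, the small RNA gene Gm22748, had a mean signal of 0.245. The nearest genes on either side, Gm36752 and Gm36862, did not exceed 0.0136 and 0.163 in any library. Copies elsewhere in the genome are another matter. Of the 3750 distinct 50-base windows of Odc1 transcripts, 911 (24.3%) also occur in transcripts of 16 other genes, Gm7993 foremost with 11.7% of the windows. Gm7993 had a mean signal of 0.807 at 0 h and 1.17 at 72 h, and the sources used here do not say how reads that match several places were assigned.

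Transcripts of the other synthesis members, Amd1 and Srm, showed no called change. Amd1 (chromosome 10, 40287458 to 40302188, minus strand) gave a signal of 5.37 and 5.03 in the 0 h libraries, 5.94 and 5.04 in the 24 h libraries, 4.88 and 4.94 in the 48 h libraries and 4.92 and 4.86 in the 72 h libraries. At 48 and 72 h the libraries of Amd1 lay below those of 0 h, with means that differed by -5.52% and -5.94%. The 72 h difference was -0.07 (95% interval -0.24 to 0.09, limma adjusted p = 0.691). Amd1 values are uncertain in another way: 78.1% of its 50-base windows recur in other genes, 76.7% in the near copy Amd2, whose signal was 1.62 to 2.10.

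Srm (chromosome 4, 148591503 to 148594993, plus strand), which turns putrescine into spermidine, gave a signal of 14.7 and 15.4 in the 0 h libraries, 18.2 and 15.7 in the 24 h libraries, 16.4 and 16.6 in the 48 h libraries and 16.3 and 15.3 in the 72 h libraries. Its libraries were above those of 0 h at 24 and 48 h and overlapped them at 72 h. The mean was 12.4% above 0 h at 24 h and 5.03% above it at 72 h (adjusted p = 0.438 and 0.754 by limma; the 72 h interval was -0.11 to 0.25). Its highest library was again 24 h replicate 1.

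**Figure D2:**
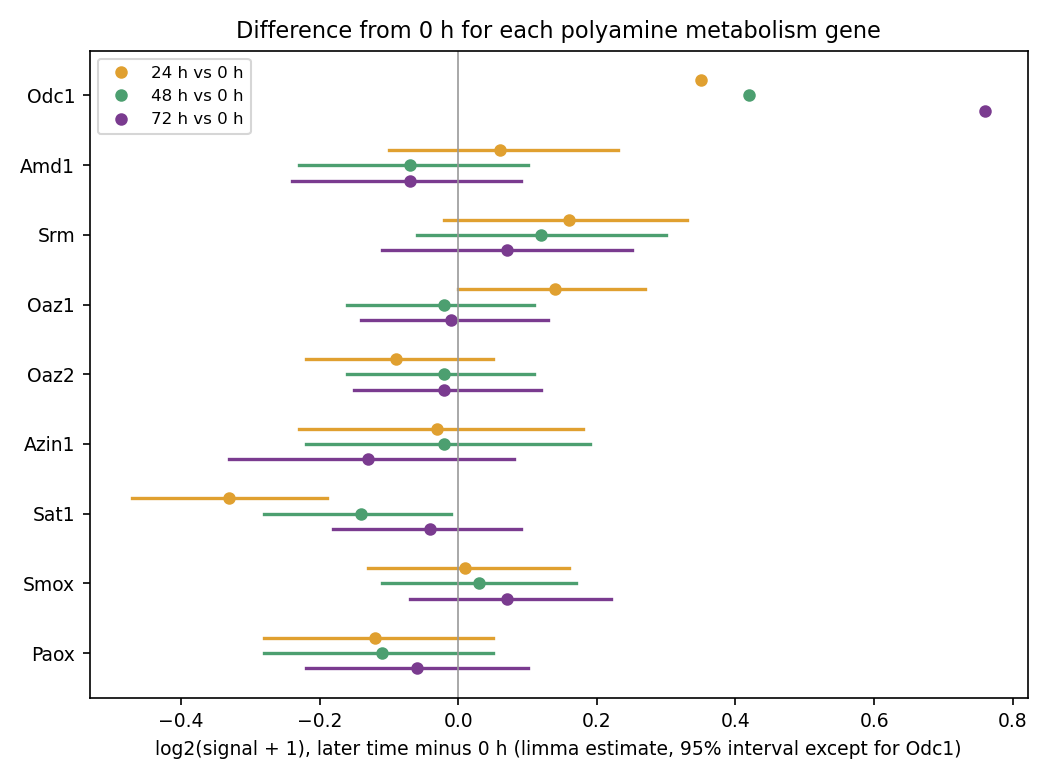
Limma estimates of log2(signal + 1) at 24, 48 and 72 h minus 0 h for each gene, with 95% intervals as horizontal lines; Odc1 has points only because its difference was the reason for its choice, and Smox comes from the fit without a filter. Odc1 lies at 0.35, 0.42 and 0.76, and of the intervals drawn only those of Sat1 at 24 and 48 h and of Oaz1 at 24 h stay on one side of 0, none of them called after adjustment.

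The antizyme transcripts, whose frameshift runs are printed above, had the narrowest ranges of the members, with the highest library at 1.16 times the lowest for Oaz1 and 1.14 times for Oaz2. Oaz1 (chromosome 10, 80826656 to 80829290, plus strand) gave a signal of 33.9 and 32.1 in the 0 h libraries, 36.9 and 35.9 in the 24 h libraries, 31.9 and 32.9 in the 48 h libraries and 33.2 and 32.5 in the 72 h libraries. Both 24 h libraries were above all the rest, by 10.4% of the mean against 0 h (difference 0.14, SE 0.06, limma adjusted p = 0.367). At 72 h the difference of Oaz1 from 0 h was -0.01 with a 95% interval of -0.14 to 0.13, or 0.907 to 1.09 times on the signal + 1 scale. Of its 50-base windows 20.1% recur in Oaz1-ps, at a mean signal of 5.27, and 74 exonic bases are shared with the microRNA gene Mir1982.

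Oaz2 (chromosome 9, 65668001 to 65690300, plus strand), the second antizyme, is the less abundant of the pair. Its signal was 7.25 and 7.04 in the 0 h libraries, 6.37 and 6.998 in the 24 h libraries, 7.09 and 6.95 in the 48 h libraries and 6.88 and 7.20 in the 72 h libraries. Both 24 h libraries of Oaz2 lay below the 0 h range, while the 48 and 72 h groups overlapped it (difference at 24 h -0.09, limma adjusted p = 0.560), and the 72 h interval was -0.15 to 0.12.

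Azin1 (chromosome 15, 38487427 to 38519266, minus strand), whose product frees ornithine decarboxylase from antizyme, gave a signal of 5.53 and 5.35 in the 0 h libraries, 5.36 and 5.27 in the 24 h libraries, 5.47 and 5.25 in the 48 h libraries and 5.50 and 4.36 in the 72 h libraries. Its groups overlapped at every time, and the low 72 h value came from replicate 2 alone. The 72 h difference was -0.13 (95% interval -0.33 to 0.08, limma adjusted p = 0.548), and 0.01 without that library.

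The Odc1 signal was also divided by that of its regulators within each library. The size of such a ratio depends on the merged exons of both genes, which are the same in every library. The ratio of Odc1 to Oaz1 was 0.224 and 0.229 in the 0 h libraries, 0.308 and 0.234 in the 24 h libraries, 0.321 and 0.317 in the 48 h libraries and 0.435 and 0.378 in the 72 h libraries. The ratio of Odc1 to Azin1 was 1.37 and 1.38 at 0 h and 2.63 and 2.82 at 72 h. Both ratios were higher in each treated library than in either 0 h library, and they inherit the choice of Odc1, so they carry no test of their own.

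**Figure D3:**
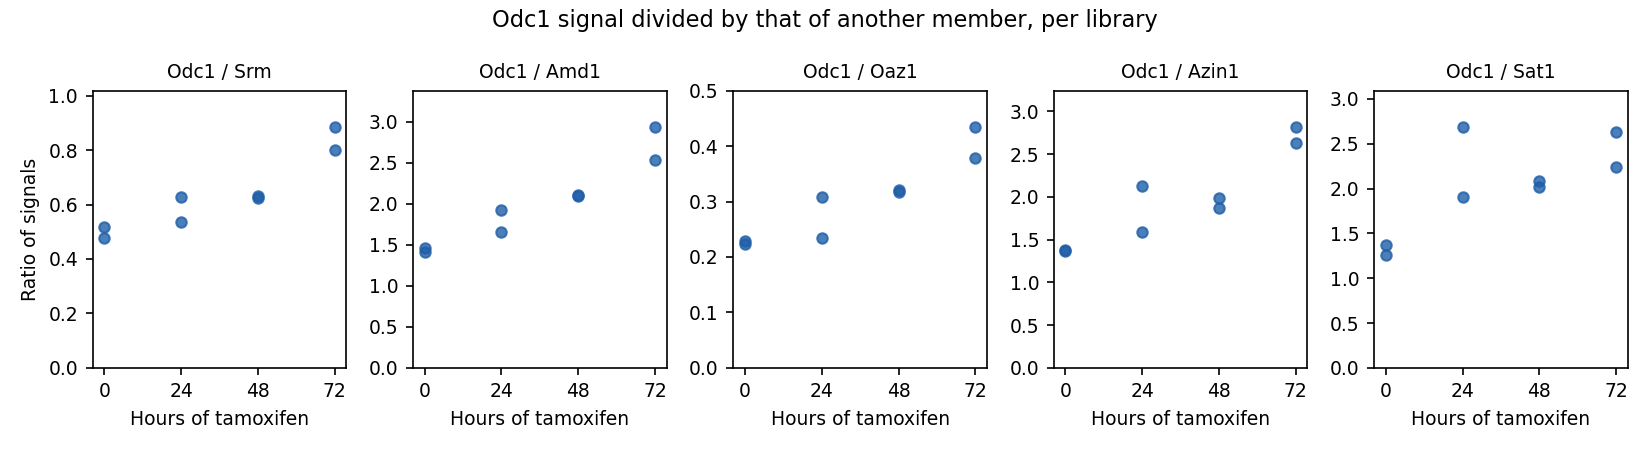
Ratio of the Odc1 signal to that of Srm, Amd1, Oaz1, Azin1 and Sat1 in each library (vertical axes starting at 0) against hours of tamoxifen, with 1 point per library. The ratio to Oaz1 runs from 0.224 at 0 h to 0.435 at 72 h, and the ratio to Sat1 is already 1.91 and 2.69 at 24 h, where Sat1 is low.

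Sat1 (chromosome X, 155213132 to 155216449, minus strand) codes for the acetyltransferase that marks spermidine and spermine for breakdown or export. None of its differences was called. Its signal was 5.996 and 5.38 in the 0 h libraries, 4.23 and 4.39 in the 24 h libraries, 4.92 and 5.17 in the 48 h libraries and 5.48 and 5.47 in the 72 h libraries. Both 24 h libraries were below all the others, and the 72 h libraries lay inside the 0 h range. The 24 h mean differed from that of 0 h by -24.2%, or -0.33 on the log2 scale (SE 0.06, 95% interval -0.47 to -0.19). Over all genes this missed the threshold (limma adjusted p = 0.103, and 0.0726 to 0.435 over 18 alternative fits), and Sat1 was number 107 of 9606 from the bottom.

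From 24 to 72 h Sat1 differed by 0.29 (SE 0.06, 95% interval 0.15 to 0.42, limma adjusted p = 0.182; 0.0785 to 0.571 over 18 alternative fits), with both 72 h libraries above both 24 h libraries. Only 2 genes, 0.0208% of those tested, were called between those times. Unlike Odc1, the Sat1 libraries at 24 h were close to each other, with an SD of 0.114.

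The 2 oxidase genes were the lowest members. Paox (chromosome 7, 140115799 to 140137224, plus strand), which oxidizes acetylated polyamines, gave a signal of 1.62 and 1.53 in the 0 h libraries, 1.24 and 1.51 in the 24 h libraries, 1.48 and 1.29 in the 48 h libraries and 1.52 and 1.41 in the 72 h libraries. Its treated libraries were below both 0 h libraries at each time; the means differed by -12.6%, -12.1% and -6.74%, with limma adjusted p = 0.503, 0.666 and 0.753. Of its windows 25.2% recur in Gm19680, and 142 of its exonic bases lie in exons of Echs1 on the other strand; the sources used here do not say whether strand was used in counting.

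Smox (chromosome 2, 131491496 to 131525922, plus strand), the spermine oxidase gene, gave a signal of 0.258 and 0.291 in the 0 h libraries, 0.298 and 0.271 in the 24 h libraries, 0.364 and 0.242 in the 48 h libraries and 0.304 and 0.378 in the 72 h libraries. Its 72 h libraries were above those of 0 h, with a mean 24.1% higher. In the fit without a filter the difference was 0.07 (95% interval -0.07 to 0.22, limma adjusted p = 0.755), and with a floor of 0.1 and a pseudocount of 0.1, chosen after the values were seen, it was 0.23 (limma adjusted p = 0.612).

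Counted over the members, limma called 0 of 8 at 24 h, 0 of 8 at 48 h and 1 of 8 at 72 h against 0 h, that 1 being Odc1, by whose value the pathway was chosen. Over all tested genes it called 0.229%, 0.552% and 2.01%. Leaving Odc1 aside, 0 of the 7 other members were called at any of the 3 times; 2, 1 and 0 of them had an unadjusted p under 0.05, against 13.2%, 10.5% and 15.7% of all tested genes. Their median difference was -0.03, -0.02 and -0.04, against 0.01, 0.00 and 0.01 over all genes. The libraries of 5, 4 and 2 of these 7 genes did not overlap those of 0 h, where 42.2%, 46.3% and 49.8% of all tested genes did not overlap. These 3 comparisons share the 0 h libraries.

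The rest of the pathway was described from a list of 61 other genes in 6 roles, of which 38 passed the filter. Limma called 0 at 24 h, 0 at 48 h and 1 at 72 h, with 7, 4 and 6 at an unadjusted p under 0.05. The shares over all tested genes were 0.229%, 0.552% and 2.01% called, and 13.2%, 10.5% and 15.7% at an unadjusted p under 0.05. The list median was 0.08, 0.01 and 0.02 at the 3 times.

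The called gene was Ahcy of the methionine cycle, the hydrolase that clears S-adenosylhomocysteine after methyl transfer. Ahcy averaged 5.94 ± 0.116 in the 0 h pair, 6.95 ± 0.196 in the 24 h pair, 7.42 ± 0.194 in the 48 h pair and 7.56 ± 0.358 in the 72 h pair, and all 6 treated libraries were above the 0 h libraries. The Ahcy difference at 72 h was 0.30 on the log2(signal + 1) scale (SE 0.05, limma adjusted p = 0.0396), and its mean signal was 1.27 times that of 0 h. The call was kept in 9 of 18 alternative fits, 2 of them chosen after the data were seen, and lost in the others, where the adjusted p reached 0.245; it was lost with either 0 h, either 48 h or either 72 h library left out.

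Mat2a, which makes S-adenosylmethionine, averaged 10.6 ± 0.244 in the 0 h pair, 14.1 ± 3.40 in the 24 h pair, 10.6 ± 0.162 in the 48 h pair and 9.99 ± 0.552 in the 72 h pair. Its 24 h replicate 1 was at 16.5, the highest of the 8 libraries, and limma gave adjusted p = 0.322 for 24 h; without 24 h replicate 2 it was 0.0242. Adi1 of methionine salvage, the path that recovers the methylthioadenosine left by polyamine synthesis, averaged 3.49 ± 0.0967 in the 0 h pair against 2.68 ± 0.0710 in the 72 h pair (difference -0.29, limma adjusted p = 0.0687). Mat2b, the regulatory partner of Mat2a, had 3.17 ± 0.0389 and 2.93 ± 0.354 (limma adjusted p = 0.583). Apip, another enzyme of salvage, named here after its values were seen, had 2.43 ± 0.0124 and 1.83 ± 0.0597 (limma adjusted p = 0.188, and 0.0327 and 0.0326 without 24 h replicate 1 or 2). In that role 2 of 7 tested genes were above 0 and 5 below at 72 h.

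Spermidine is also the substrate for hypusine, a modified residue of the translation factor eIF5A. Dohh, which completes it, averaged 2.62 ± 0.0949 in the 0 h pair, 3.26 ± 0.116 in the 24 h pair, 3.12 ± 0.0166 in the 48 h pair and 3.27 ± 0.0509 in the 72 h pair. All 6 treated libraries of Dohh were above the 0 h pair, with a difference of 0.24 at 72 h (limma adjusted p = 0.0559, and under the threshold in 5 of 17 alternative fits). Eif5a itself averaged 62.0 ± 1.56 and 63.8 ± 0.416 at those times (limma adjusted p = 0.870), and Dhps, the first enzyme of the modification, 0.924 ± 0.0443 and 1.05 ± 0.0172 (limma adjusted p = 0.488).

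Among the genes listed as synthesis inputs, Oat, which links ornithine to glutamate, averaged 5.74 ± 0.0167 in the 0 h pair against 5.77 ± 0.0854 in the 72 h pair (limma adjusted p = 0.979). Oaz3, an antizyme gene better known from testis, had 1.82 ± 0.126 and 1.76 ± 0.178 (limma adjusted p = 0.870). Sms, the spermine synthase gene, named after its values were seen, averaged 1.78 ± 0.0339 in the 0 h pair, 1.64 ± 0.145 in the 24 h pair, 1.501 ± 0.0874 in the 48 h pair and 1.38 ± 0.0218 in the 72 h pair. Both Sms libraries lay below those of 0 h at each time, and the 72 h difference was -0.22 (95% interval -0.35 to -0.09, limma adjusted p = 0.102).

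Of the 14 transport genes 5 passed the filter and 0 were called. Slc3a2, the heavy chain of amino acid exchangers that has also been tied to polyamine export, averaged 32.8 ± 0.847 in the 0 h pair against 31.3 ± 1.54 in the 72 h pair (limma adjusted p = 0.663). Slc7a1, an arginine transporter, had 6.26 ± 0.283 and 6.65 ± 0.145 (limma adjusted p = 0.526), and Gpc1, a glypican linked to polyamine uptake, 6.32 ± 0.192 and 6.49 ± 0.109 (limma adjusted p = 0.877).

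**Figure D4:**
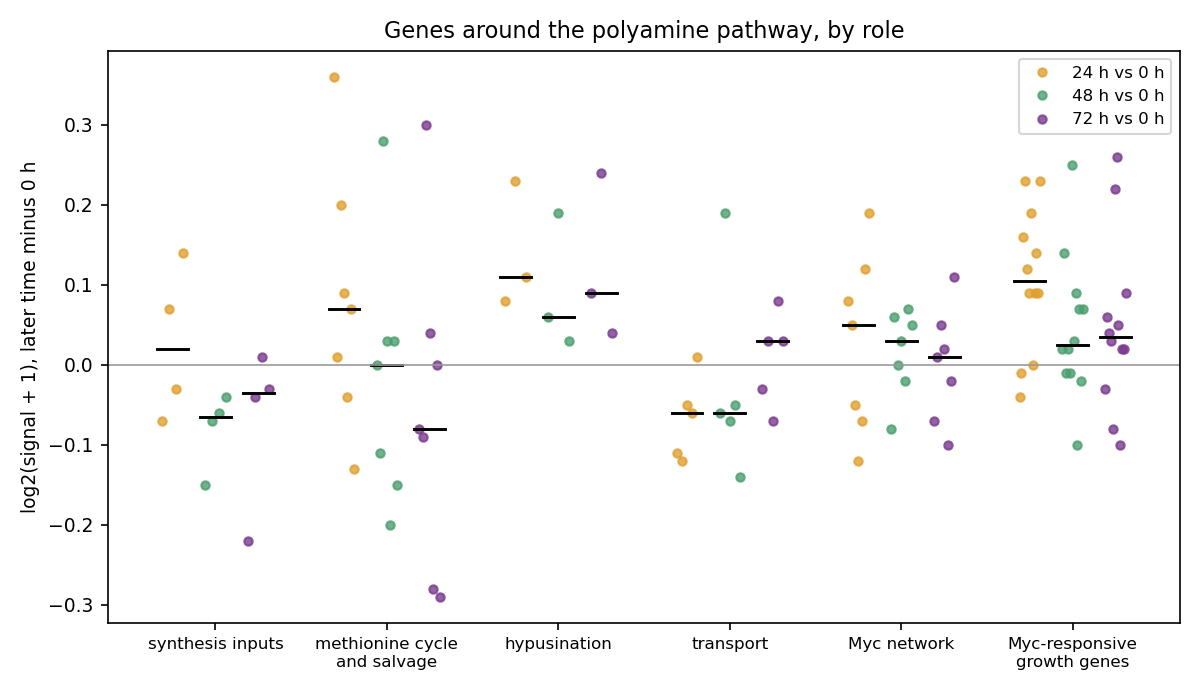
Differences of log2(signal + 1) from 0 h at 24, 48 and 72 h for the 38 tested genes around the pathway, grouped by role, with 1 point per gene and a bar at the median of each role. Methionine cycle and salvage genes spread in both directions, from Adi1 at -0.29 to Ahcy at 0.30 at 72 h, and the 12 growth genes have medians of 0.11, 0.03 and 0.04.

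Odc1 is a textbook target of Myc, so the Myc network was included. Myc, Mycn and Mycl are given although they fall outside the rule for named genes. Myc itself was low, at 0.302 ± 0.0538 at 0 h and 0.242 ± 0.0540 at 72 h, and Mycn had 0.918 ± 0.0322 and 0.734 ± 0.0183; neither passed the filter, and limma without a filter gave adjusted p = 0.775 and 0.243. Max, the partner of Myc proteins, had 4.53 ± 0.228 and 4.58 ± 0.143 (limma adjusted p = 0.948), Mlx 3.40 ± 0.237 and 3.74 ± 0.00994 (limma adjusted p = 0.372), and Mga 2.996 ± 0.0368 and 3.15 ± 0.0176 (limma adjusted p = 0.668). Of the 12 Myc-responsive growth genes 0 were called at any time against 0 h. Their differences were above 0 for 10, 8 and 9 of the 12 at 24, 48 and 72 h. Of all 9606 tested genes, 5350, 5022 and 5121 were above 0 at those times. Ldha had 93.97 ± 4.78 and 97.0 ± 0.705, Pa2g4 33.98 ± 0.375 and 34.5 ± 1.30, and Cdk4 29.95 ± 0.983 and 27.8 ± 1.09 at 0 and 72 h, with limma adjusted p = 0.855, 0.944 and 0.551. Cad, named after its values were seen, had the largest 72 h difference of the 12. It averaged 2.37 ± 0.113 at 0 h and 3.05 ± 0.257 at 72 h (difference 0.26, 95% interval 0.08 to 0.44, limma adjusted p = 0.151).

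Finally, the genes whose profile over the 8 libraries was most like that of Odc1 were found among 2467 others whose signal averaged 5 or more, by Pearson's r of log2(signal + 1). They were Ly6e (r = 0.988), Gm30505 (0.970), Ahsg (0.954), Gm16286 (0.950) and Snap47 (0.948). Ly6e, a GPI-anchored surface protein gene, averaged 8.37 ± 0.131 in the 0 h pair, 9.90 ± 1.09 in the 24 h pair, 10.1 ± 0.276 in the 48 h pair and 11.6 ± 0.331 in the 72 h pair. All 5 were higher in 24 h replicate 1 than in 24 h replicate 2, as Odc1 was. That shared split follows largely from the choice of these genes by r over the same 8 libraries. Their 72 h means were between 1.11 times (Gm16286) and 2.07 times (Ahsg) those of 0 h. Of the members, Srm had the highest r with Odc1, 0.51, and Paox the lowest, -0.44; with 8 libraries that share their times and depth, these r are descriptions.

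**Figure D5:**
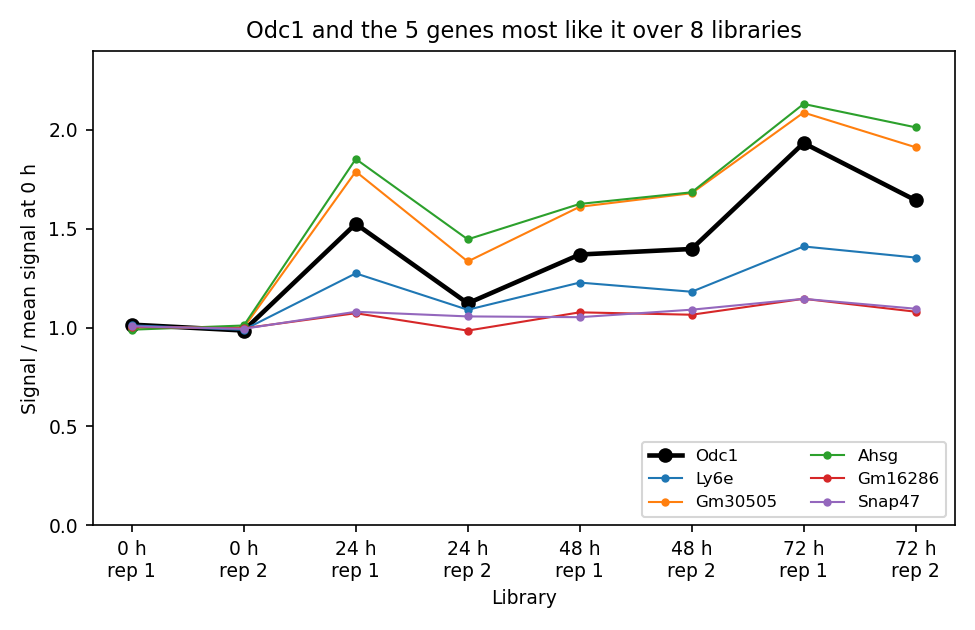
Signal divided by the gene's own 0 h mean (vertical axis starting at 0) in each of the 8 libraries for Odc1 and the 5 genes with the highest Pearson's r with it; lines join the points of a gene for the eye only. All 6 genes are higher in 24 h replicate 1 than in replicate 2 and reach their highest value in 72 h replicate 1. The 5 genes were chosen by r over these same libraries, so this likeness follows largely from the choice.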

How the data were processed

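Total RNA was isolated with a commercial kit and ribosomal RNA removed, per the labels' protocols; the labels' molecule field names genomic DNA, and the values were read as RNA. The deposited signal was normalized by the authors in a way not given in the sources used here; its reading as mean coverage comes from its values. Per the submitters' processing notes, the tools were HISAT2 2.2, SAMtools 1.12 and deepTools 3.5, with mm10 (GRCm38) as the build. Library sums appear in the report, and read depth is unknown.

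Here, limma 3.58.1 (R 4.3.3) was fitted on log2(signal + 1) on group alone, with a variance trend on intensity and 4 residual degrees of freedom, over 9606 genes with a mean of at least 1. The fit was also run on simulated data. There, every gene had the same spread and libraries were independent, so that run does not measure how reliable the calls here are. Alternatives were a pseudocount of 0.1, no filter, a filter at 5, weighted trimmed mean and quantile scaling, no trend, the compared groups alone, the replicate number as a block, and each library left out; added after seeing the data were an unweighted trimmed mean and a floor and pseudocount of 0.1. Members and lists were chosen with earlier results of these data known. Named genes are all members, called list genes, and up to 3 others per role with the highest mean. Near copies and neighbours of members and the 5 genes most like Odc1 are named too. Sms, Apip, Myc, Mycn, Mycl and Cad were named outside this rule, with their values known. Coordinates come from the files' exons. Sequences and 50-base windows come from GENCODE M21 transcripts.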

Additional observations from a re-analysis of the deposited data

How the results depend on the processing

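Of 680 values of single members under the alternatives, 657 kept their direction and their side of the threshold (for Odc1 against 0 h or 72 h, stayed within the replicate SD), 4 moved and 19 changed sign, all of the latter in differences not called. The 4 that moved are Odc1 at 24 h against 0 h, at 0.15 and 0.55, and at 72 h against 24 h, at 0.61 and 0.21, without 24 h replicate 1 and without replicate 2. With quantile normalization Oaz1 at 72 h gave 0.05. With 1 library left out, the ranges that cross 0 were -0.04 to 0.16 for Amd1 at 24 h; -0.06 to 0.01 for Oaz1 and -0.04 to 0.01 for Azin1 at 48 h; -0.04 to 0.03 for Oaz1, -0.05 to 0.01 for Oaz2, -0.27 to 0.01 for Azin1 and -0.11 to 0.02 for Sat1 at 72 h; -0.13 to 0.27 for Odc1, -0.13 to 0.07 for Srm, -0.02 to 0.04 for Azin1 and -0.08 to 0.09 for Paox at 48 h against 24 h; and -0.19 to 0.01 for Srm, -0.24 to 0.04 for Azin1 and -0.03 to 0.14 for Paox at 72 h against 24 h. Members called at 72 h numbered 0 without a filter and 0 to 1 with a library left out (1 without either 24 h library, 0 without any other), and 1 at 48 h with the compared groups alone. Each of these calls is Odc1 against 0 h, the contrast or libraries by which it was chosen, so they are a description and not a test. Genes called from the pathway list at 72 h numbered 0 without a filter, with the replicate block and with the compared groups alone, 2 (Ahcy and Dohh) with quantile normalization and with either trimmed mean rescaling, and 0 to 3 with a library left out (3 without either 24 h library); they numbered 0 to 2 at 24 h and 0 to 1 at 72 h against 24 h, the higher counts without 24 h replicate 2. The cause was not tested.

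Over all genes, the 22 calls at 24 h became 4 without a filter, 9 with the filter at 5 and 1 with the compared groups alone, and 2 to 104 with a library left out. The 53 at 48 h became 5, 22 and 111 under the same settings, 24 with the replicate block, and 2 to 95. The 193 at 72 h became 63 and 63 under the first 2, and 9 to 320. Calls at 72 h against 24 h, 2 as reported, became 0, 0 and 0, 1 with the replicate block, and 0 to 61; at 48 h against 24 h the range was 0 to 1. Quantile normalization moved the split at 48 h from 31 higher and 22 lower to 22 and 24. Deviations of same-numbered libraries correlated over genes at 0.18, 0.34 and 0.40 among 0, 24 and 48 h. Their correlations with 72 h were -0.02, 0.10 and 0.07. The labels do not say that the numbers pair libraries, and the main fit did not pair them. These values do not settle whether some libraries shared a culture or day. Apart from the counts given, the replicate block changed no call of a member.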
